A study of Mus musculus with 2 samples.

Results

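Tenocytes are the fibroblasts of tendon, and the cells described here are 112 tenocyte-like cells from mouse muscle collected 1 day after injury. They were taken from the injured library as barcodes with at least 200 detected genes, at most 20% mitochondrial transcripts, at least 10 transcripts of Fmod (fibromodulin, a proteoglycan that binds collagen fibrils), 0 of the endothelial gene Pecam1 and at most 5 of the macrophage gene C1qb. The rule gave 112 of the 4489 barcodes of that library, or 2.53% (interval 2.09 to 3.04%) of the 4421 that passed the first 2 limits, and the series holds 10070 barcodes in all. The cells were chosen by the measured counts of Fmod, Pecam1 and C1qb, so their own values are given as a description.

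The study used droplets to make single-cell 3' RNA libraries of the tibialis anterior, a shin muscle that lifts the foot, from 12-week-old C57B/6 mice. One library came from uninjured muscle, and the other from muscle taken 1 day after an intramuscular injection of 1.2% barium chloride (written BaCl in the labels), which destroys muscle fibres. The injection is listed under the treatment of both samples, and the sources used here do not say whether the control muscle was injected. With 1 library per group there is no replicate check, no p-value is given, and the sources used here do not give the number of mice behind a library.

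Tendon joins muscle to bone, and its cells build parallel bundles of type I collagen whose width is set by small leucine-rich proteoglycans such as fibromodulin, decorin and lumican. The transcription factors scleraxis and Mohawk direct the tendon programme, and tenomodulin is a membrane protein of mature tenocytes. Fibroblasts of injured tissue can also answer cytokines with acute phase proteins and metallothioneins, the small proteins that hold zinc and copper.

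Each transcript carried a unique molecular identifier (UMI), and a gene's UMIs in all cells of a class were divided by the class total to give counts per 1000000 (CPM). The 112 injured Fmod cells held 1431102 UMIs, with 3679, 10165.5 and 34220 as the lowest, median and highest per cell. The same rule gave 392 cells in the uninjured library (7.28% of 5385 kept barcodes), with 2037539 UMIs and a median of 4533 per cell. For comparison within the injured library, 209 fibro-adipogenic cells (interstitial fibroblasts of muscle, at least 3 UMIs of Pdgfra and at most 2 of Fmod) held 3916931 UMIs, with a median of 17216 per cell. In the uninjured library 137 cells met that rule, with 708764 UMIs and a median of 4460 per cell. Classes of 448 endothelial and 814 myeloid cells of the injured library served to show how much of a transcript is present in cells of another kind, since free RNA enters all droplets. Intervals are exact, at 95%, and cover counting error only.

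Several differences between the libraries run alongside the injury. Xist had 0 UMIs in the injured Fmod cells and 1720 in 366 of the 392 uninjured ones, while Y-linked genes had 102 UMIs in 57 injured cells and 0 in uninjured cells, so the sex of the animals and the injury cannot be told apart. Ribosomal protein genes took 26.0% of the UMIs of injured and 14.1% of those of uninjured Fmod cells, and leaving them out of the total raises all other injured values. The libraries shared 33 barcodes, of which 0 belonged to the injured and 3 to the uninjured Fmod cells.

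Some tendon genes that the rule did not use were present in most of the cells. At least 1 UMI of Tnmd, the gene of tenomodulin, was found in 96 of 112 injured Fmod cells, of Scx (scleraxis) in 76 of 112 and of Thbs4, which encodes a thrombospondin of tendon matrix, in 110 of 112. The same genes were found in 0.446%, 0.670% and 10.5% of injured endothelial cells, at median depths of 10165.5 UMIs per Fmod cell and 7626 per endothelial cell. Of the 6 marker genes given for these cells, Fmod was at 3123 CPM, Lum at 703, Saa3 at 275, Serpina3n at 377, Mt2 at 4754 and Il1rl1 at 748. They do not mark every cell: Saa3 was found in 5 of 112 cells and Il1rl1 in 33 of 112.

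Markers of other cell types varied by list. The 10 endothelial markers summed to 218 CPM in injured and 764 in uninjured Fmod cells, against 10351 in injured endothelial cells; Kdr and Tie1 had 0 UMIs, Fabp4 was at 24.5 CPM and Cav1, which fibroblasts also express, at 184. The 10 pericyte and smooth muscle markers summed to 165 against 448 CPM in injured and uninjured Fmod cells, with Rgs5 at 23.8 and Acta2 at 18.2 after injury. The 14 fibro-adipogenic markers summed to 4395 against 4616 CPM, with Pdgfra at 31.4 after injury. The 10 satellite cell markers summed to 349 against 215 CPM, and Sdc4, which is not restricted to satellite cells, made up 310.2 of the first, while Pax7, Myf5, Myod1, Myog, Cdh15 and Calcr had 0 UMIs. Of the 8 T cell markers 6 had 0 UMIs, Cd3e, Cd3d and Cd3g among them, and Thy1, which fibroblasts share, made up 570.2 of the 571 CPM. The 14 monocyte and macrophage markers summed to 274.6 CPM in injured against 35.3 in uninjured Fmod cells, and the 8 neutrophil markers to 173 against 0.982. The 10 muscle fibre markers went the other way, at 129 against 804 CPM, and the 5 erythroid markers at 56.6 against 4136. The part these transcripts of other cells play in the results was not tested.

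The limit of 10 UMIs lies within a continuous range. In the injured library 18 cells had 10 to 14 UMIs of Fmod, and 21 cells just outside it had 5 to 9. Thbs4 was at 13195 CPM in the first and 12522 in the second, Tnmd at 170.2 and 147, Il1rl1 at 1378 and 1036, and the fibro-adipogenic gene Pdgfra at 54.0 and 38.5. The cells just outside thus held tendon transcripts at much the same levels as those just inside. The 94 members with 15 or more UMIs differed from both, with Tnmd at 705 CPM, Thbs4 at 16077, Il1rl1 at 621 and Pdgfra at 26.9. The macrophage gene Lyz2 was at 81.5 CPM in them, against 461 in the 18 cells just inside and 298 in the 21 just outside.

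Most tendon genes were lower 1 day after injury, while the cells stayed far above fibro-adipogenic cells for nearly all of them. Of 20 tendon identity genes measured besides Fmod (at least 20 UMIs over both classes), 17 were at least 2-fold lower in injured than in uninjured Fmod cells and 2 were at least 2-fold higher, with a list median of -1.74 on the log2 scale. Fmod is left out of these counts because the rule used it, and a limit of 10 raw UMIs admits cells with a lower share of Fmod where depth is higher. Over all 9046 genes measured, 18.5% were at least 2-fold lower and 9.42% at least 2-fold higher, with a median of -0.15. These shares are the ones to set beside each later list count of Fmod cells after injury. The split of those calls leans on the scaling: 852 genes were higher and 1676 lower with the UMI total, 633 and 2062 with median-ratio scaling, and 1173 and 1325 when mitochondrial and ribosomal protein genes were left out of the total.

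Fmod itself, at chr1:134037254-134048277 of mm10, was at 3123 CPM in injured and 11032 in uninjured Fmod cells. Tnmd was at 615 against 4651 CPM, 7.56-fold lower (interval 7.06 to 8.11). Per cell, the lowest, median and highest Tnmd values were 0, 503 and 4332 CPM after injury and 0, 4131 and 21848 without it, so the ranges overlapped while the medians were far apart. Both tendon transcription factors were lower too. Scx was at 220.1 against 591 CPM, 2.69-fold lower (interval 2.37 to 3.05), and Mkx, the gene of Mohawk, at 49.6 against 108, 2.18-fold lower (interval 1.66 to 2.89).

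Other tendon and cartilage genes were lower as well. Chodl, which encodes a C-type lectin-like membrane protein, was at 12.6 against 585 CPM, 46.5-fold lower (interval 29.3 to 78.8). It was found in 10 of 112 injured and 183 of 392 uninjured cells. Cilp2, a cartilage intermediate layer protein, was at 111 against 1440.0, 13.0-fold lower (interval 11.05 to 15.3). Chad (chondroadherin) was 9.28-fold lower (interval 8.40 to 10.3), and Kera (keratocan) 6.09-fold lower (interval 5.56 to 6.67). Comp, a matrix protein that binds collagen, was 2.14-fold lower, from 1594 to 743 CPM.

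The 2 tendon genes at least 2-fold higher after injury were Thbs4 and Angptl7. Thbs4 was at 15592 CPM in injured and 6374 in uninjured Fmod cells, 2.45-fold higher (interval 2.39 to 2.50), and its cell medians were 16668 and 5614. Angptl7, a secreted angiopoietin-like protein, was at 4652 against 1856 CPM, 2.51-fold higher (interval 2.41 to 2.61). Neither came from a few cells: 31 of the 112 cells held the top 50% of Thbs4 UMIs, and 14 that of Angptl7. Against fibro-adipogenic cells of the same library, at 219.8 and 13.0 CPM, the ratios were 70.9-fold (interval 66.3 to 76.0) and 357-fold (interval 271 to 480.4).

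**Figure D1:**
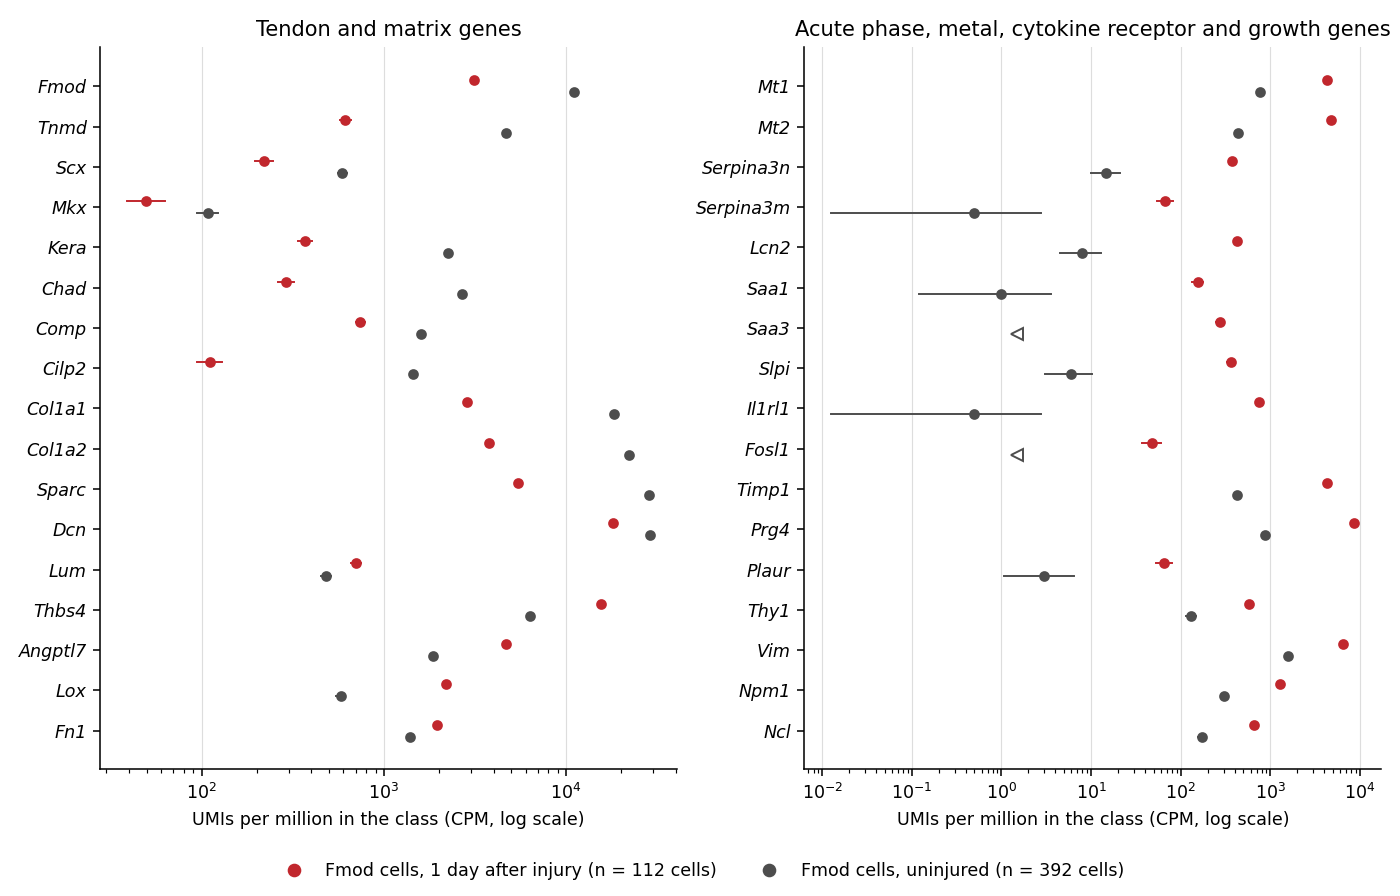
CPM (log scale) of 34 genes summed over injured (red) and uninjured (grey) Fmod cells, 1 library each; lines are exact 95% Poisson intervals, and an open triangle marks the limit that 3 counts allow where 0 were found. Tnmd, Kera and Col1a1 lie to the left after injury and Thbs4, Angptl7 and Lox to the right, while every gene of the right panel is higher after injury.

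Collagen genes were lower after injury and the crosslinking enzyme was higher. Of 26 fibrillar and basement membrane genes 18 were at least 2-fold lower and 0 at least 2-fold higher (median -1.59). Col1a1, the main collagen chain of tendon, was at 2850.2 against 18263 CPM, 6.41-fold lower (interval 6.20 to 6.62), with lowest, median and highest cells at 0, 2173 and 17299.5 after injury and 829, 12071 and 120182 without it. Col1a2, its partner chain, was 5.88-fold lower (interval 5.71 to 6.05), and Sparc, a collagen-binding protein, 5.23-fold lower (interval 5.10 to 5.35). Eln (elastin) was at 6.99 against 266 CPM, 38.1-fold lower (interval 20.5 to 79.8), and was found in 3 of 112 injured and 93 of 392 uninjured cells. Its log2 ratio was -5.25, and over the alternatives it ranged from -6.98, without the injured cell with most of it, to -3.64, as a mean of per-cell values. Col22a1, a collagen of the muscle-tendon junction, was at 6.99 against 279.7 CPM, 40.0-fold lower (interval 21.6 to 83.9). It was found in 4 of 112 injured and 94 of 392 uninjured cells, so a part of the uninjured class held it. Whether the mix of cells differed between the 2 classes was not tested. Fn1 (fibronectin) was the one member of this list with a ratio above 1, at 1946 against 1392 CPM, 1.40-fold higher (interval 1.33 to 1.47), under the 2-fold limit.

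Lox, lysyl oxidase, which crosslinks collagen and elastin, was at 2202 against 579 CPM, 3.81-fold higher (interval 3.56 to 4.07). It was found in all 112 injured cells and in 281 of 392 uninjured ones. Its relatives differed: Loxl2 was 6.42-fold lower (interval 4.94 to 8.49), and Loxl1, Loxl3 and Loxl4 were within 2-fold at log2 ratios of 0.49, 0.44 and -0.33. Of the 21 collagen processing genes 1, Lox, was at least 2-fold higher and 9 were at least 2-fold lower.

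Small leucine-rich proteoglycans bind collagen fibrils and set their spacing, and 8 of the 12 measured besides Fmod were at least 2-fold lower and 0 at least 2-fold higher (median -1.70). Decorin (Dcn) was at 18043 against 28936 CPM, 1.60-fold lower (interval 1.58 to 1.63), which is less than 2-fold. Lum (lumican) lay on the other side, at 703 against 479.5 CPM, 1.47-fold higher (interval 1.34 to 1.60). Ogn (osteoglycin) was 3.83-fold lower (interval 3.49 to 4.21), and Bgn (biglycan) 1.94-fold lower (interval 1.83 to 2.05). Kera and Chad were thus at least 2-fold lower, and Dcn and Lum within 2-fold.

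Genes of provisional and injury matrix were divided. Prg4, which encodes the lubricating proteoglycan lubricin, was at 8609 against 866 CPM, 9.94-fold higher (interval 9.46 to 10.5), and was found in 104 of 112 injured cells. Postn (periostin), often high in repairing tissue, was at 59.4 against 864, 14.6-fold lower (interval 11.7 to 18.3), and Tnc (tenascin C) at 151 against 382, 2.53-fold lower (interval 2.18 to 2.96). Of the 10 genes measured 3 were at least 2-fold higher (Prg4, Spp1 and Has1) and 5 at least 2-fold lower. The shares over all genes were 9.42% and 18.5%. Spp1 (osteopontin) rests on few cells, since 1 cell held 45.8% of its 603 UMIs.

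Among proteases and their inhibitors, 5 of 20 were at least 2-fold higher and 8 at least 2-fold lower. Over all genes measured the shares were 9.42% and 18.5%. Timp1, an inhibitor of matrix metalloproteinases, was at 4253 against 426 CPM, 10.00-fold higher (interval 9.31 to 10.7), while Timp2 and Timp3 had log2 ratios of -1.84 and -1.50. Timp1 was found in 110 of 112 injured and 130 of 392 uninjured cells. Mmp3 (stromelysin) was 35.3-fold higher (interval 21.8 to 61.2), but 1 cell held 43.8% of its 422 UMIs and 18 cells held all of them. Plaur, the urokinase receptor, was at 65.0 CPM in injured Fmod cells and 202 in injured endothelial cells, so expression by the Fmod cells is not separated from free RNA.

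Acute phase genes were higher in a way that differed from gene to gene in the number of cells involved. Of 9 measured, 8 were at least 2-fold higher after injury and 0 lower (median 4.68). Serpina3n, a serine protease inhibitor, was at 377 against 14.7 CPM, 25.6-fold higher (interval 17.7 to 38.3), and was found in 89 of 112 injured and 24 of 392 uninjured cells. It was at 6.09 CPM in injured endothelial and 1.29 in injured myeloid cells. Its neighbour in the serpin cluster, Serpina3m, was at 67.1 against 0.491 CPM, 137-fold higher (interval 24.0 to 5454). The 2 genes are close copies, so reads may be split between them.

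Lcn2, lipocalin 2, which binds iron-carrying siderophores, was at 424 against 7.85 CPM, 54.0-fold higher (interval 32.99 to 95.1), and was found in 53 of 112 injured cells against 11.2% of endothelial ones. A few cells held much of it: 5 of the 112 had 48.8% of its UMIs. Slpi, an inhibitor of leukocyte proteases, was at 362 against 5.89 CPM, 61.5-fold higher (interval 34.9 to 119.7), in 26 of 112 cells. Both had larger ratios than Serpina3n over fewer cells, and the log2 ratio of Slpi was 5.94, or 5.04 without the cell with most of it and 4.22 with thinned cells.

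The serum amyloid A genes, whose proteins circulate with lipoproteins during inflammation, came from very few cells. Saa3, at chr7:46711998-46715700, had 394 UMIs in 5 of the 112 cells, and 172 of them (43.7%) were in 1 cell. It was at 275 CPM in injured and 0 in uninjured Fmod cells, at least 187-fold higher when 3 counts are set for the 0. Saa1 was at 154 CPM in 16 of 112 injured cells and 0.982 in uninjured ones, 157-fold higher (interval 43.0 to 1307), with 38.0% of its UMIs in 1 cell. The remaining 107 cells had no Saa3 transcript at this depth.

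**Figure D2:**
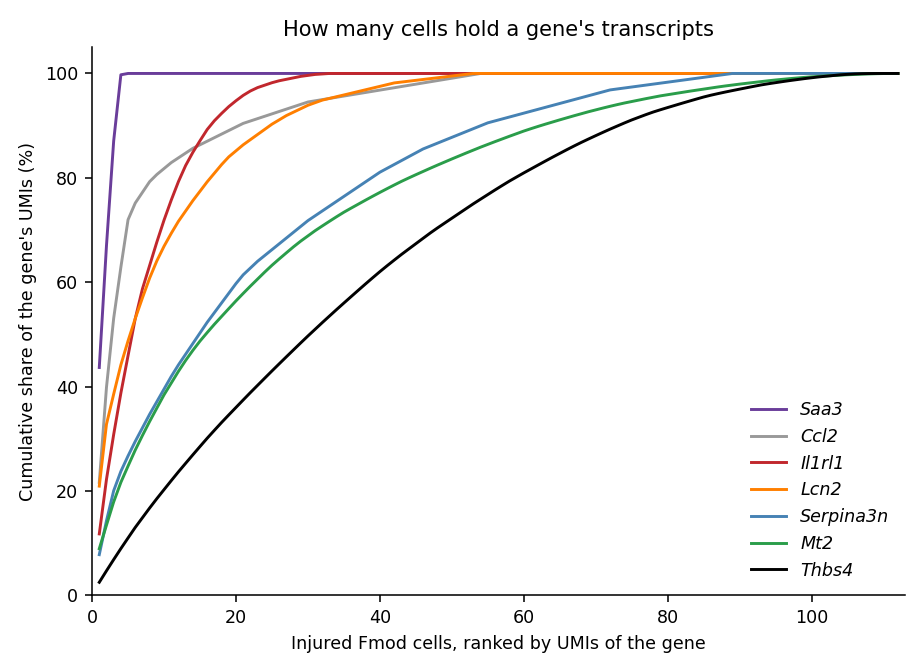
Cumulative share of a gene's UMIs (%) against the number of injured Fmod cells, ranked from the cell with most UMIs, for 7 genes. All Saa3 transcripts lie in 5 cells and all Il1rl1 transcripts in 33, whereas 31 cells are needed for 50% of the Thbs4 transcripts.

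Metallothionein transcripts were higher and were found in nearly every injured cell. Mt2 was at 4754 against 430.4 CPM, 11.05-fold higher (interval 10.3 to 11.9), and Mt1 at 4312 against 759, 5.68-fold higher (interval 5.37 to 6.01). Mt2 was found in 111 of 112 injured and 179 of 392 uninjured cells, and its lowest, median and highest cells were at 0, 2945 and 30665 and 0, 0 and 10256 CPM. Over the 112 cells thinned to 3000 UMIs each, Mt1 and Mt2 had a Spearman correlation of 0.81, a description over cells of 1 library. Other genes of metal handling differed by gene: Hmox1 (haem oxygenase) was 8.26-fold higher (interval 4.74 to 15.4), the zinc importer Slc39a14 2.64-fold higher (interval 1.73 to 4.11) and Mt3 had a log2 ratio of 3.16, while the iron exporter Slc40a1 had one of -2.58. In all, 6 of 10 genes of this list were at least 2-fold higher and 1 lower (median 1.59). The change was shared by fibro-adipogenic cells, where 6 of 9 were higher after injury and 1 lower (median 1.68). After thinning, Mt1 was found in 95.5% of injured Fmod and 94.3% of injured fibro-adipogenic cells. Mt2 was found in 95.5% and 92.8%, at means of 15.1 and 7.36 UMIs per cell. Hmox1 was at 60.8 CPM in Fmod cells and 80.3 in endothelial cells of the same library, so its level is not separated from free RNA.

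The promoter windows of Mt1, Mt2, Serpina3n and Lcn2 are shown as those of metal and acute phase genes found in more cells than Saa1 and Saa3. Each runs from 250 bases before to 50 after the start that RefSeq gives on GRCm38.p6, 5' to 3' on the gene's strand, and transcripts may also start elsewhere. Of the starts that GENCODE gives, the window holds 1 of 3 for Mt1, 1 of 2 for Mt2, 1 of 1 for Serpina3n and 3 of 6 for Lcn2. The other Mt1 starts lie 122 and 152 bases downstream of the RefSeq one, so its matches lie further upstream of them and the bases next to them are not shown. Capitals mark, in Mt1 and Mt2, the metal response element (TGCACNC or TGCGCNC on either strand), in Serpina3n the NF-kappaB motif (GGG, any 2 bases and TTTCC, on either strand), and in Lcn2 the C/EBP motif (TTGCNNAA on either strand).
Mt1, chr8:94178839-94179138, plus strand: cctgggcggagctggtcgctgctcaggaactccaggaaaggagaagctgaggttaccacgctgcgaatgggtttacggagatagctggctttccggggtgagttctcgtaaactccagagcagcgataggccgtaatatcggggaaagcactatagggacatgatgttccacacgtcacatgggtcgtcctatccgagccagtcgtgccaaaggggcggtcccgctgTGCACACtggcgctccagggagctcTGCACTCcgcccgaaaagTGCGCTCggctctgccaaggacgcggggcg
Mt2, chr8:94172368-94172667, plus strand: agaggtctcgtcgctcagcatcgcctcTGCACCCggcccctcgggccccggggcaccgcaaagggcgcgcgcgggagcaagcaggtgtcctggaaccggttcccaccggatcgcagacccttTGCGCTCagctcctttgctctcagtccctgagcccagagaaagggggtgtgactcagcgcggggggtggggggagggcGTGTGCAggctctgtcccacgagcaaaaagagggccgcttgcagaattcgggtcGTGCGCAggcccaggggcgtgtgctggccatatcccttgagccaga
Serpina3n, chr12:104406458-104406757, plus strand: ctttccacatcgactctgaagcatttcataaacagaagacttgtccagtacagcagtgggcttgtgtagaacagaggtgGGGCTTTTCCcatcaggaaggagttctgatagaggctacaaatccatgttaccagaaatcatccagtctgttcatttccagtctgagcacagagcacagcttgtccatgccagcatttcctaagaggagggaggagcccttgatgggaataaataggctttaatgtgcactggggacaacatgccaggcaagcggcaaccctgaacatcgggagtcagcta
Lcn2, chr2:32387690-32387989, minus strand: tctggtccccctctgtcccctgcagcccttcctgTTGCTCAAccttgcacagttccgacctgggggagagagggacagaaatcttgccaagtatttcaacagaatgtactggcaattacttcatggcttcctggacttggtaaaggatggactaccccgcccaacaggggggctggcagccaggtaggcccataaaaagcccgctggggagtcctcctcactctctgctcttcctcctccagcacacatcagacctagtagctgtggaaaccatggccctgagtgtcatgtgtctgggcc
The metal response element matched 3 times in the Mt1 window and 4 times in the Mt2 window. Of 32851 windows of this length 25.7% held at least 1 match, 1.97% at least 3 and 0.517% at least 4. The NF-kappaB motif matched 1 time in Serpina3n and 0 times in Lcn2, against 1.63% of windows with a match, and the C/EBP motif 1 time in Lcn2 and 0 times in Serpina3n, against 10.8%. A STAT motif (TTCNNNGAA) matched in neither, against 8.30% of windows. A match describes these letters and does not show a bound site.

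Chemokine transcripts were more numerous after injury, but mostly at the level found in endothelial cells of the same library. All 4 neutrophil-attracting chemokines measured were at least 2-fold higher than in uninjured Fmod cells (median 3.71). Of 7 monocyte-attracting ones 4 were higher and 2 lower (median 1.35); without Ccl2, Ccl7 and Cxcl12, which were over 10 times higher in another class, 2 were higher and 2 lower (median -0.46). Cxcl2 was at 219 CPM in injured and 0.491 in uninjured Fmod cells, 446-fold higher (interval 79.4 to 17657), but at 965 in injured endothelial and 16514 in myeloid cells. Ccl2 was at 307 against 16.2 CPM, 18.9-fold higher (interval 13.3 to 27.9), with 340.0 in endothelial cells. Ccl2 was found in 48.2% of Fmod and 46.7% of endothelial cells, with similar values for Cxcl1 (49.1% and 44.6%). At these shares expression by the Fmod cells is not separated from free RNA, and endothelial cells may express the genes themselves. The log2 ratio of Ccl2 after injury was 4.24 and ranged over the alternatives from 3.41, with at least 1000 CPM of Fmod, to 5.72, without the barcodes of highest Scrublet scores.

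Further named genes fell in the same range. Ccl7 was 27.6-fold higher (interval 17.8 to 45.1) after injury and Ccl6 31.3-fold higher (interval 13.0 to 98.4), and these chemokines were at 243 and 225 CPM in endothelial cells against 284 and 76.9 in Fmod cells. Il1b was 145-fold higher (interval 25.5 to 5792) and the neutrophil gene S100a8 117-fold higher (interval 20.4 to 4667), at 71.3 and 57.3 CPM against 241 and 140.5 in endothelial cells. A few cells stood above this level: 5 of 112 held 72.0% of the Ccl2 UMIs, 5 held 75.7% of those of Ccl7 and 5 held 47.9% of those of Cxcl1. Cxcl14, a chemokine of fibroblasts, was above the endothelial level, at 711 against 55.7 CPM, and 2.77-fold higher (interval 2.49 to 3.09) after injury. So was Csf1, the macrophage growth factor, at 123 against 22.996 CPM, 2.56-fold higher (interval 1.99 to 3.31) after injury.

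The receptor of interleukin 33 had the largest ratio of all genes measured, from transcripts in 33 of the 112 cells. Il1rl1, at chr1:40429570-40465415, encodes this receptor, also called ST2, in membrane and soluble forms that gene counts do not separate. It was at 748 CPM in injured Fmod cells, with 1071 UMIs in 33 of 112 cells, and had 1 UMI in the uninjured ones, 1525-fold higher (interval 273 to 60284). It was at 2.03 CPM in endothelial and 4.87 in myeloid cells of the injured library, where 2.01% and 3.19% of cells had a UMI. The change was shared by fibro-adipogenic cells: the log2 ratio of Il1rl1 after injury was 8.99 in Fmod and 6.36 in fibro-adipogenic cells. Il33 itself was at 68.5 against 25.5 CPM, 2.68-fold higher (interval 1.90 to 3.83), and 0.902 in endothelial cells. Il1r1, the receptor of interleukin 1, was 2.40-fold higher (interval 1.25 to 4.77), from 7.85 to 18.9 CPM. Of 6 genes of this family measured 5 were at least 2-fold higher and 0 lower. Il1b, which did not exceed its endothelial level, is among the 5.

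Genes of NF-kappaB and AP-1 were less uniform. Of 11 genes of NF-kappaB feedback 5 were at least 2-fold higher, among them Nfkbia, the inhibitor of NF-kappaB, at 701 against 206 CPM, but it was at 1108 in endothelial cells. Fosl1, an AP-1 subunit, was at 47.5 CPM against 0, at least 32.3-fold higher, and at 67.0 in endothelial cells, so it too is not separated from free RNA. Fos and Jun were within 2-fold at log2 ratios of -0.38 and -0.49, and Socs3, which is induced by STAT3, at 0.17. Thy1, a surface protein of fibroblasts and T cells, was at 570.2 against 131 CPM, 4.37-fold higher (interval 3.80 to 5.03), in cells with 0 UMIs of Cd3e, Cd3d and Cd3g.

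Most genes of ribosome assembly were higher, and most of those of metabolism were within 2-fold. Of 21 ribosome biogenesis genes 15 were at least 2-fold higher and 0 lower (median 1.42). Npm1 (nucleophosmin) was at 1288 against 306 CPM, 4.21-fold higher (interval 3.84 to 4.61), and Ncl (nucleolin) at 648 against 173, 3.74-fold higher (interval 3.31 to 4.24). Of 16 genes of nucleotide and one-carbon synthesis 7 were higher and 0 lower and 9 within 2-fold. Of 20 of glycolysis and hypoxia the counts were 9, 0 and 11, and of 15 heat shock genes 7, 1 and 7. Over all 9046 genes they were 852, 1676 and 6518. The glycolytic enzymes Gapdh, Eno1 and Pkm had log2 ratios of 1.63, 1.77 and 1.64. Oxidative phosphorylation stayed within 2-fold for 16 of 17 genes, with Cox5a at 1.14.

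Among cytoskeleton genes, an intermediate filament and several tubulins were higher and the common actins were not. Vim (vimentin) was at 6468 against 1573 CPM, 4.11-fold higher (interval 3.95 to 4.28). Of 9 tubulins 4 were at least 2-fold higher, against 9.42% of all genes measured, with Tubb6 at 164 against 41.7 CPM. Actb and Actg1, the actins of all cells, had log2 ratios of 0.14 and 0.03. The smooth muscle genes Acta2, Tagln and Myl9 were lower, at -3.39, -3.95 and -3.39. In injured Fmod cells they were at 18.2, 6.99 and 11.2 CPM, against 279, 214 and 135 in injured endothelial cells. Expression of these 3 genes by the Fmod cells is thus not separated from free RNA. Without them, 3 of 19 genes of the actin list were at least 2-fold higher and 1 lower (median 0.57).

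Cell cycle genes were few in transcripts. Of 18 measured 11 were at least 2-fold higher and 2 lower (median 1.49), led by the replication licensing genes Mcm2 to Mcm6, while Ccnb1, Ccna2 and Mki67, which mark division itself, did not reach 20 UMIs over both classes. The median of this list changed sign when only genes with at least 100 UMIs were kept (-0.04) and when cells were thinned to 3000 UMIs (-0.80), so no direction is read from it.

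Groups lower after injury included secreted inhibitors of Wnt signalling, with 6 of 7 at least 2-fold lower (median -2.01). Wif1 was at 195 against 1006 CPM, 5.16-fold lower (interval 4.55 to 5.87), Sfrp2 4.03-fold lower (interval 3.32 to 4.93), and Sfrp4 had a log2 ratio of -3.55. Of 10 genes of insulin-like growth factor signalling 6 were lower and 0 higher, with Igf1 at 196 against 451 CPM, 2.30-fold lower (interval 2.01 to 2.64). Interferon-stimulated genes were mostly within 2-fold (0 of 19 higher, 3 lower), as were complement genes (0 of 11 higher, 4 lower). Of all 9046 genes measured, 6518 were within 2-fold, 9.42% higher and 18.5% lower. Nothing is therefore read from the interferon and complement counts.

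**Figure D3:**
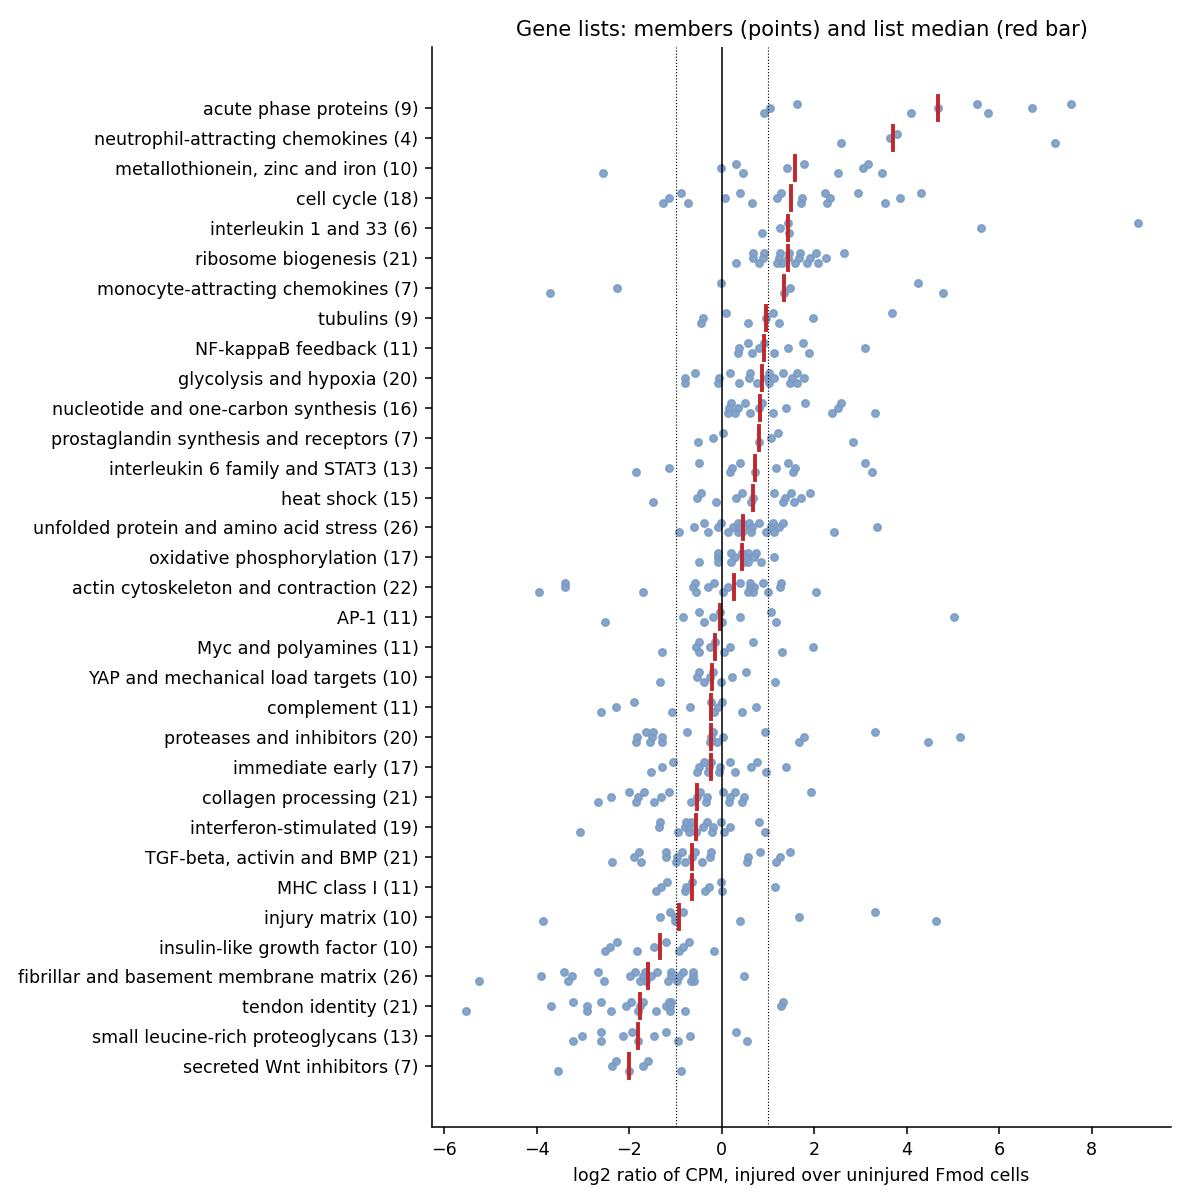
Log2 ratio of CPM, injured over uninjured Fmod cells, for the measured members of each gene list (points; number of members in brackets) with the list median (red bar); dotted lines mark 2-fold. Acute phase proteins lie highest (median 4.68), and secreted Wnt inhibitors, small leucine-rich proteoglycans and tendon identity genes lowest (medians -2.01, -1.82 and -1.77, with Fmod among the plotted members of the last pair).

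The remaining named genes that were lower after injury were of mixed kind. Sparcl1, a matricellular protein, was at 13.3 against 326 CPM, 24.5-fold lower (interval 15.6 to 41.0). Scube2, a secreted protein of Hedgehog signalling, was 44.0-fold lower (interval 14.8 to 215) and Itih5, which binds hyaluronan, 22.8-fold lower (interval 14.1 to 39.5). Fabp4, a fatty acid carrier of fat and capillary cells, had a log2 ratio of -4.09. Sparcl1 and Fabp4 were at 218 and 4371 CPM in injured endothelial cells. Their levels in injured Fmod cells are thus not separated from free RNA. The haemoglobin genes Hbb-bs, Hba-a1 and Hba-a2 had log2 ratios of -6.01, -6.11 and -7.26, and these are transcripts of red cells. Without the cells of highest Scrublet scores, which rate likeness to doublets, they were at -3.90, -4.49 and -5.58, and with at least 20 UMIs of Fmod at -2.46, -1.64 and -2.94.

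Set against the fibro-adipogenic cells of the same injured muscle, the Fmod cells stood far higher for tendon genes. Of 20 tendon identity genes besides Fmod 19 were at least 2-fold higher in Fmod cells and 0 lower (median 5.30), where 7.82% of all 9589 genes measured were at least 2-fold higher and 13.0% lower. Tnmd was at 615 against 4.34 CPM, 142-fold higher (interval 88.0 to 244), and Scx at 220.1 against 1.02, 216-fold higher (interval 83.4 to 796). Kera was 725-fold higher (interval 199.8 to 6005), Chad 1139-fold higher (interval 203 to 45079) and Cilp2 435-fold higher (interval 77.0 to 17296). Wif1 had 0 UMIs in fibro-adipogenic cells and was at least 255-fold higher in Fmod cells. Uts2r, a receptor of urotensin, was at least 151-fold higher, Ccdc3 331-fold higher (interval 58.3 to 13188), and Col11a1, a fibrillar collagen, 151-fold higher (interval 40.7 to 1259). Fmod defined both classes, so its difference is part of the rule.

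Matrix genes that both kinds of fibroblast use were also apart. Col1a1 was at 2850.2 CPM in Fmod and 369 in fibro-adipogenic cells, 7.73-fold higher (interval 7.28 to 8.22), and Dcn 5.84-fold higher (interval 5.71 to 5.96), while Col3a1 was 1.19-fold higher (interval 1.11 to 1.27). Lox was at 2202 against 156 CPM, 14.1-fold higher (interval 12.9 to 15.4), Fn1 7.88-fold higher (interval 7.32 to 8.49), Thy1 8.01-fold higher (interval 6.98 to 9.20) and Prg4 2.53-fold higher (interval 2.47 to 2.60). Of 12 injury matrix genes 2 were higher and 7 lower in Fmod cells, the hyaluronan synthases Has1 and Has2 among the lower ones at log2 ratios of -2.31 and -4.21.

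Acute phase and chemokine genes differed in opposite directions between the 2 kinds of fibroblast. Acute phase genes were at least 2-fold higher in Fmod cells for 7 of 9 and lower for 2 (median 2.13): Lcn2 was at 424 against 46.2 CPM, 9.18-fold higher (interval 7.76 to 10.9), and Serpina3n 2.93-fold higher (interval 2.59 to 3.31). Saa3 was 4.37-fold higher (interval 3.71 to 5.14), a log2 ratio of 2.13 that was 1.31 without the Fmod cell with most of it. Neutrophil-attracting chemokines were at least 2-fold lower for 4 of 5 and higher for 0 (median -3.01), and monocyte-attracting ones lower for 7 of 11 and higher for 0 (median -1.79). Of these, 3 and 7 were over 10 times higher in endothelial or myeloid cells than in Fmod cells. Without them 2 of 2 and 3 of 4 were lower (medians -4.58 and -1.73).

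Cxcl5 was at 20.3 CPM in Fmod and 1446 in fibro-adipogenic cells, 71.3-fold lower (interval 49.6 to 107). Cxcl3 was 27.8-fold lower (interval 13.4 to 69.5) and Ccl2 11.1-fold lower (interval 10.1 to 12.2), at 307 against 3405 CPM. Cxcl1 was at 287 against 2316 CPM, 8.07-fold lower (interval 7.31 to 8.93). Ccl11, which attracts eosinophils, had 1 UMI in Fmod cells and was at 109 CPM in fibro-adipogenic cells, 155-fold lower (interval 27.7 to 6147). The Fmod values of Ccl2 and Cxcl1 are those described above, of which a few cells held a large share.

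**Figure D4:**
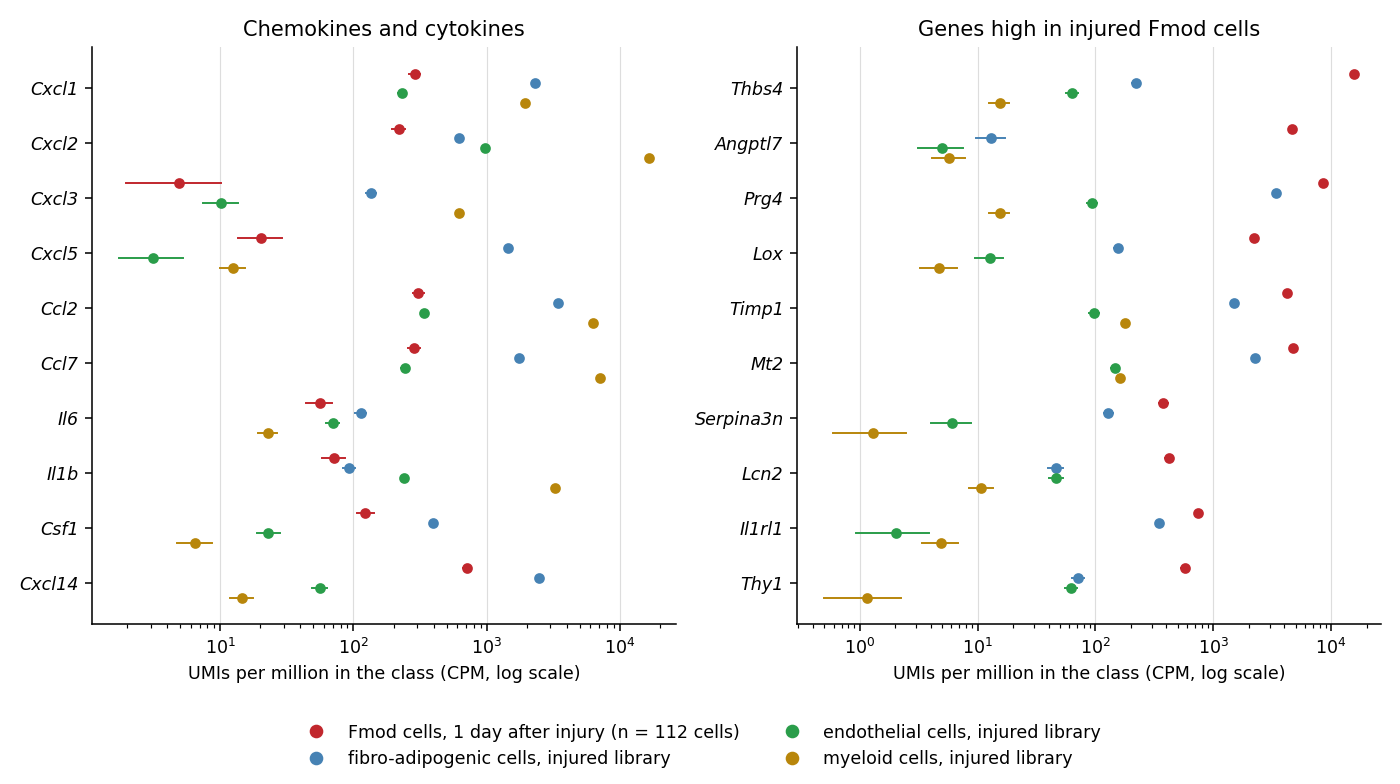
CPM (log scale, lines are exact 95% Poisson intervals) of chemokine and cytokine genes (left) and of genes high in Fmod cells (right) in 4 classes of the injured library. Cxcl1, Ccl2 and Ccl7 of Fmod cells lie beside the endothelial values and far below the fibro-adipogenic ones, whereas Thbs4, Lox, Serpina3n, Lcn2 and Il1rl1 are highest in Fmod cells.

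Other genes lower in Fmod cells included several of interstitial fibroblasts. Aldh1a2, a retinoic acid synthesis enzyme, had 0 UMIs in Fmod cells and was at least 38.2-fold lower. Osr1, a transcription factor of interstitial fibroblasts, was 79.6-fold lower (interval 14.1 to 3160.2) and Efemp1, an elastic fibre protein, 87.7-fold lower (interval 15.6 to 3478). Dpep1, Cadm3, AI607873 and Procr had log2 ratios of -4.56, -3.80, -4.20 and -4.56, and Hbb-bs, a transcript of red cells, -4.80, or -1.04 without the barcodes of highest Scrublet scores. Growth genes were lower as well: 9 of 22 ribosome biogenesis genes (median -0.97) and 20 of 27 cell cycle genes (median -1.21) were at least 2-fold lower in Fmod cells, with 0 and 1 higher. Depth differed too, with medians of 10165.5 UMIs per Fmod and 17216 per fibro-adipogenic cell. Among Fmod cells the ribosome biogenesis list had a Spearman correlation of 0.39 with depth. After thinning, Npm1 had means of 3.14 and 6.01 UMIs per cell, and the part of depth was not tested further. Il1rl1 was at 748 CPM in Fmod and 348 in fibro-adipogenic cells, 2.15-fold higher (interval 1.98 to 2.33). That ratio lay at 1.10 on the log2 scale and, under 2-fold, at 0.59 both for cells with at least 20 UMIs of Fmod and for thinned cells and at 0.45 for cells with at least 1000 CPM of Fmod. A UMI of it was found in 29.5% of Fmod and 43.1% of fibro-adipogenic cells, or 23.2% and 32.5% after thinning, which goes against the CPM, so no order is read from the shares.

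The change after injury also differed between the 2 kinds of fibroblast, set out as the ratio of their injured over uninjured ratios. Over 8289 genes compared, 10.4% differed by at least 2-fold toward Fmod cells and 4.84% toward fibro-adipogenic cells, with intervals off equality. All 9 complement genes compared differed toward Fmod cells (median 2.40 on the log2 scale): C3, the central complement protein, was at 98.5 against 59.4 CPM in Fmod cells and at 73.0 against 440.2 in fibro-adipogenic cells. Of 19 interferon-stimulated genes 13 did so (median 1.19), with Irf7 at log2 changes of 0.05 and -2.72. After injury 10 of 11 complement and 17 of 19 interferon-stimulated genes were at least 2-fold lower in fibro-adipogenic cells, against 4 of 11 and 3 of 19 in Fmod cells. Over all genes measured 24.3% were lower in fibro-adipogenic and 18.5% in Fmod cells. Within fibro-adipogenic cells, 40.2% of 9587 genes differed by at least 2-fold after injury, and in Fmod cells 27.9% of 9046. The uninjured fibro-adipogenic class was smaller, at 137 cells and 708764 UMIs against 392 cells and 2037539 UMIs. Counting error was not simulated for it, so no order is read from the 2 shares. Lum was 1.47-fold higher in Fmod and 5.16-fold lower in fibro-adipogenic cells after injury, and Dcn 1.60-fold lower and 6.76-fold lower. Ribosome biogenesis genes differed toward fibro-adipogenic cells for 8 of 21 and toward Fmod cells for 0 (median -0.90). With median-ratio scaling the counts over all genes were 522 toward Fmod and 920 toward fibro-adipogenic cells, against 858 and 401 here.

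The 112 cells were not alike, and those with the receptor of interleukin 33 lay mostly at 1 end of their range. Thinned to 3000 UMIs, 26 cells had at least 1 UMI of Il1rl1 and 86 had none. The ribosome biogenesis list summed to a mean of 18.0 UMIs per 3000 in the first and 7.29 in the second, and Npm1 to 6.38 and 2.16. The fibrillar and basement membrane list went the other way, at 19.4 against 47.7, and so did Thbs4 at 33.6 against 64.7 and Dcn at 38.0 against 73.6. Lox was at 6.46 and 6.47 UMIs, and Timp1 was at 14.8 and 9.72. Vim was at 23.8 and 15.1.

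Depth moved with this range. The cells with Il1rl1 had a median of 19363 UMIs before thinning and those without 8817, and a rule of 10 raw UMIs admits deep cells with a low share of Fmod. The part of this in the pattern was not tested beyond the thinning. Over the 112 cells the Spearman correlation of Il1rl1 was 0.57 with the ribosome biogenesis list, -0.50 with the matrix list and 0.40 with depth. The 2 lists had one of -0.58 with each other. These are descriptions over cells of 1 library, which share its depth and composition.

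**Figure D5:**
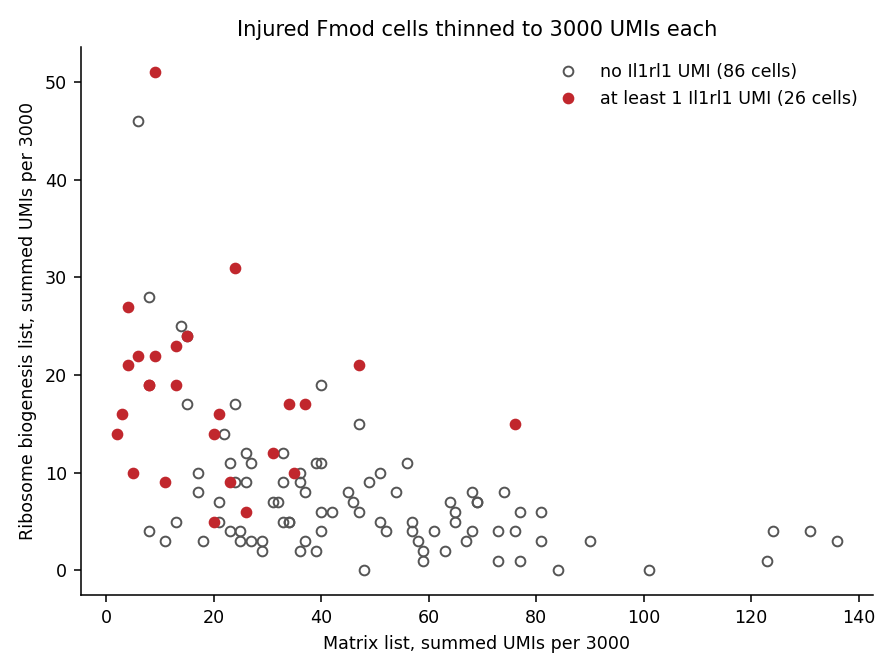
Summed UMIs of the ribosome biogenesis list against those of the fibrillar and basement membrane matrix list in each of the 112 injured Fmod cells thinned to 3000 UMIs; filled points are the 26 cells with an Il1rl1 UMI and open points the 86 without. Cells with Il1rl1 lie mostly at few matrix and many ribosome biogenesis transcripts (means 19.4 and 18.0).

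Acute phase and metal genes had weaker correlations with the 2 lists. Serpina3n had one of 0.35 with the matrix list and -0.39 with the ribosome biogenesis list, Lcn2 0.19 and -0.25, and Mt1 0.096 and -0.31. Mt1 had one of 0.32 with Lcn2 and 0.005 with Serpina3n, and Serpina3n one of 0.23 with Lcn2. Angptl7 had one of 0.69 with Dcn, and Thbs4 one of 0.56 with Fn1. Saa3 was found after thinning in 5 of the 86 cells without Il1rl1 and 0 of the 26 with it. Serpina3n was found in 52 of 86 and 8 of 26, and Lcn2 in 29 of 86 and 6 of 26.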

How the data were processed

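Single-cell 3' RNA libraries (10x version 2 chemistry, per the labels' protocols) of 1 uninjured and 1 injured tibialis anterior were used, and groups were taken from the sample titles. Per the submitters' processing notes, the matrices were made with Cell Ranger 2.1.1 against mm10. Each deposited value is a raw, whole UMI count without normalization, and the sources used here do not give the annotation or how barcodes were selected. The injured library held 39014762 UMIs (median 7282 per barcode) and the uninjured one 22994502 (median 3237).

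Rows that share a symbol were added (58 symbols), which gave 28625. Barcodes with fewer than 200 genes or over 20% mitochondrial UMIs were left out. The members and the gene lists (33 of pathways, 16 of markers) were chosen with earlier results of these data known. Counts were summed per class. Exact Poisson, conditional binomial and Clopper-Pearson intervals at 95% cover counting error only, and UMIs of 1 library are not replicates. A gene was measured with at least 20 UMIs over both classes and called by size alone, at 2-fold. For folds against a class with 0 UMIs, 3 counts over the class were set in its place. For log2 ratios the smaller count was set to 3 where it was below that, stopping at equal rates. Besides the listed genes, the text names 12 genes in each direction of the 2 main comparisons. They were ranked by the bound of the 95% ratio interval that lay nearest equality. Only genes with at least 50 UMIs and a UMI in at least 20% of cells of the higher class were ranked. Mitochondrial, Xist, Y-linked and predicted genes were left out of the ranking. Cells were thinned to 3000 UMIs with seed 0, which left out 94 uninjured and 0 injured Fmod cells. Myeloid cells had at least 6 UMIs of C1qb, and endothelial cells at least 3 of Pecam1 and 1 of Cdh5.

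Scrublet marked 1 barcode in each library (0.0223% injured, 0.0179% uninjured) and so did not work. Leaving out the 161 and 249 barcodes of highest score instead, an assumed 0.8% per 1000 barcodes, was an alternative. It removed 0 injured and 25 uninjured Fmod cells. Gene positions are from GENCODE release M21 on the mm10 assembly, and promoter windows from RefSeq on GRCm38.p6. The script was tested on counts simulated from the Poisson model that the intervals assume. In the first comparison 4470 genes had at least 50 UMIs in the uninjured class, and 95.7% of their intervals held the true ratio. The 200 genes changed 4-fold were drawn from these and all were called. Counting error alone put 220 of 8962 unchanged genes past 2-fold. Python 3.11.15, numpy 2.4.6, scipy 1.17.1, pandas 2.3.3, scanpy 1.11.5 and matplotlib 3.10.9 were used.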

Additional observations from a re-analysis of the deposited data

Results flagged for a closer look

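For 11 genes of the lists or the named genes, the log2 change after injury was at least 2-fold in opposite directions in Fmod and fibro-adipogenic cells. With 1 library per group the difference was not tested. Higher in Fmod cells and lower in fibro-adipogenic cells were 7 genes. Angptl7, a secreted tendon protein, had 1.33 in Fmod and -3.83 in fibro-adipogenic cells. Thy1, a surface protein of fibroblasts, had 2.13 in Fmod and -1.41 in fibro-adipogenic cells, and Ly6a, the Sca-1 antigen, had 1.79 in Fmod and -1.15 in fibro-adipogenic cells. Saa1, an acute phase protein, had 6.71 in Fmod and -2.31 in fibro-adipogenic cells, where 38.0% of the injured Fmod UMIs were in 1 cell. Cp (ceruloplasmin) had 1.63 in Fmod and -1.57 in fibro-adipogenic cells. Gdf10, a BMP family ligand, had 1.27 in Fmod and -2.08 in fibro-adipogenic cells, and Id1, a target of BMP signalling, 1.17 in Fmod and -1.02 in fibro-adipogenic cells.

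The other 4 were lower in Fmod cells. Tnc (tenascin C) had -1.34 in Fmod and 4.47 in fibro-adipogenic cells. Wisp1, a secreted CCN protein, had -2.08 in Fmod and 1.87 in fibro-adipogenic cells, and the protease Adamts9 -1.51 in Fmod and 1.70 in fibro-adipogenic cells. Adamts9 was at 10.5 CPM in injured Fmod and 174 in injured endothelial cells, so its level in Fmod cells is not separated from free RNA. The haemoglobin gene Hbb-bt, a transcript of red cells, had -5.65 in Fmod and 1.30 in fibro-adipogenic cells.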

How the results depend on the processing

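No paired analysis was possible because there was 1 library per group. Of the list medians under the alternatives, 949 moved by at most 1.5-fold, 19 moved further and 2 changed sign from beyond 2-fold. Of the log2 ratios of named genes, 1108 stayed within the counting interval and 250 did not. None of those beyond 2-fold changed sign, but 10 smaller ones of 5 genes did, all between the 2 kinds of fibroblast: Ccl6 from -0.20 to as much as 0.79, Eln from -0.65 to 0.29, Il1b from -0.38 to 0.34, S100a8 from -0.22 to 0.23 and Fabp4 from 0.12 to -0.24. The cell cycle median after injury turned to -0.039 with a minimum of 100 UMIs per gene and to -0.80 with thinned cells, both of which leave fewer genes. The 852 genes higher and 1676 lower after injury became 390 and 566 with that minimum and 501 and 1029 with thinned cells. The 750 genes higher in Fmod than in fibro-adipogenic cells became 1321 with a minimum of 5 UMIs, 279 with 100 and 374 with thinned cells, and the 1243 lower ones 506 and 749 in the last of these. With at least 20 UMIs of Fmod, 73 of the 112 cells remained. The 858 genes whose change differed toward Fmod cells became 522 with median-ratio scaling, and the 401 toward fibro-adipogenic cells 920. Median-ratio scaling changed all log2 ratios by -0.16 after injury and by 0.11 between the fibroblasts. The settings for the cell of highest UMIs per gene and for cells with Tnmd, Scx or Mkx were chosen after seeing the data. Depth limits genes of few cells: 3 counts correspond to 2.096 CPM in the injured Fmod cells.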

Other observations

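Of 7 prostaglandin genes measured 3 were at least 2-fold higher after injury and 0 lower, against 9.42% and 18.5% of all genes measured. Ptgs2, the inducible cyclooxygenase, was at 21.7 CPM in injured and 9.32 in uninjured Fmod cells, and at 171 in injured fibro-adipogenic cells. Hpgd, which breaks down prostaglandins, was at 21.7, 24.5 and 1.02 CPM in the same classes, and Ptgis, prostacyclin synthase, at 794, 456 and 124. Injured Fmod cells were thus lower in Ptgs2 and higher in Hpgd and Ptgis than the fibro-adipogenic cells beside them. Ptgs2 was at 52.5 CPM in endothelial and 433 in myeloid cells of the injured library, so its level in Fmod cells is not separated from free RNA. Without it, 2 of 6 prostaglandin genes were higher after injury and 0 lower (median 0.42).

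Of 21 genes of TGF-beta, activin and BMP signalling 3 were at least 2-fold higher after injury and 6 lower, shares not far from the 9.42% and 18.5% of all genes measured, so nothing is read from the counts. Tgfb3 was at 42.6 against 82.9 CPM, and at 6.38 in injured fibro-adipogenic cells. Bmp4 was at 23.8 against 54.5 CPM, and at 5.62 in fibro-adipogenic cells. Ltbp2, which binds to elastic fibres, was at 30.0 against 10.8 CPM, 2.78-fold higher (interval 1.63 to 4.88). Fst (follistatin), which binds activin, was at 4.19 against 15.7 CPM, and at 52.6 in fibro-adipogenic cells.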
